A study of Mus musculus with 14 samples.

Results

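Mouse embryonic stem (ES) cells that had formed colonies in retinoic acid (RA) by day 4 were compared with the same strain of ES cells in standard culture. The comparison takes every array the labels put in these groups, which is 4 of the 14 arrays of the series. The day 4 colonies (2 arrays) came from the subline MC1-ZE16, strain 129/Sv, plated on gelatin in ES medium with the cytokine LIF and 50 nM RA. The series' design describes colonies of pluripotent cells picked by hand on day 4. Standard day 3 (2 arrays) was the subline MC1-ZE3 of the same strain, grown as a monolayer on gelatin in ES medium without added RA and harvested on day 3. Each array carried Cy3-labelled sample RNA beside a Cy5-labelled reference, RNA of 11 pooled mouse cell lines mixed 2:1 with 129 ES cell RNA. A level is therefore a log2 ratio of sample to reference, and a level of 0 is equal to the reference. Subline, RA, the picking of colonies, the day of harvest and the slide all differ between the groups and cannot be told apart. The labels' extraction text speaks of picked pooled colonies for the standard culture as well. No label states that both arrays within a group hold RNA of independent cultures, and the p-values below therefore measure a spread that may be purely technical.

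Other groups of 2 arrays serve as reference points. Control day 3 is a second untreated MC1-ZE3 culture in LIF medium, RA 48 h is MC1-ZE3 given 50 nM RA, and LY294002 48 h is MC1-ZE3 given that inhibitor of phosphoinositide 3-kinase. Day 7 colonies were picked from the line MC1 in 50 nM RA, and passage 10 cells were MC1-ZE3 that had spent 7 days in RA and 10 later passages in standard medium. Both day 4 arrays lay on slide 4. The standard arrays lay on slides 2 and 3, and the second of them was scanned on the same day as the day 4 arrays. Control day 3 and RA 48 h shared slide 5. On the 4 arrays compared, 57.9% to 58.5% of probes were well above background in Cy3, against 56.1% to 75.1% over all 14, and the number of arrays limits the precision.

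RA, made from vitamin A, enters the nucleus, binds retinoic acid receptors on DNA and switches on genes that carry ES cells out of the undifferentiated state. LIF signals through STAT3 and helps to hold them in it, so cells in LIF plus RA receive opposed signals. Cells in such a culture mostly differentiate, and the series' title speaks of undifferentiated colonies that emerge among them.

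The deposited files pair no probe with a gene, and each probe is known by an identifier and a sequence of 60 bases. The sequences of 8 probes whose values are described array by array are shown here. The first 4 lines are the 2 largest rises and the 2 largest falls among probes that could not be placed, and the other 4 were chosen after their values were seen. Capitals mark the bases shared between the ends of the first pair, a polyadenylation signal AATAAA where it stands alone, and the 42 bases shared by Z00034455-1 and Z00004931-1.
Z00055038-1: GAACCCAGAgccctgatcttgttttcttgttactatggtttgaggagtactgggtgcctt
Z00075242-1: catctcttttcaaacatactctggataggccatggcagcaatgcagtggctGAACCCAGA
Z00025439-1: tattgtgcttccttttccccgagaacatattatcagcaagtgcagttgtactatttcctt
Z00048598-1: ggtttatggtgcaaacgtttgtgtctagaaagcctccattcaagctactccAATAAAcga
Z00034455-1: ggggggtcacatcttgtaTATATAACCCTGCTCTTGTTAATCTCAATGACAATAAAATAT
Z00004931-1: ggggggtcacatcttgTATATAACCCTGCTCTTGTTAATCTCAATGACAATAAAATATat
Z00064853-1: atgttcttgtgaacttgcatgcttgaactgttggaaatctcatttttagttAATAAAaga
Z00022345-1: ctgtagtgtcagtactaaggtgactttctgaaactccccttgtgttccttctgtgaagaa

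A large part of the tested probes differed between day 4 colonies and standard culture, most of them by less than 2-fold. Of 31053 probes bright enough to test, 15049 (48.5%) passed limma's test at a Benjamini-Hochberg adjusted p under 0.05. Of these, 7830 (25.2%) were higher and 7219 (23.2%) lower in the colonies. In such bulk RNA, fewer cells of a type and less RNA per cell cannot be told apart. The change was under 2-fold for 6771 of the higher and 6265 of the lower probes. At least 2-fold changes were seen for 1059 higher probes (3.41% of those tested) and 954 lower ones (3.07%). At least 4-fold there were 163 and 131, at least 8-fold 24 and 19, and at least 16-fold 6 and 3. The 5th to 95th percentile of all log2 differences ran from -0.79 to 0.84, with a median of 0.01.

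The replicate arrays were close to each other, which sets the scale for these differences. The median absolute log2 difference between replicates was 0.07 for day 4 and 0.09 for standard culture. Within 0.5 log2 of each other lay 99.9% and 99.3% of the probes. Across probes, which are not independent replicates, replicates correlated at r = 0.993 and 0.985, and arrays of the different groups at 0.819 to 0.826. For each of the 1059 raised and 954 lowered probes both day 4 arrays lay on the same side of both standard arrays, as the choice of probes changed at least 2-fold all but fixes. Of all tested probes both day 4 arrays lay above both standard arrays for 37.9% and below them for 34.8%. The lower group was too dim to be well above background for 90 of the raised and 86 of the lowered probes, so that only a bound on their change was measured.

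The changes moved probes across the level of the reference. The raised probes had a median level of -0.20 in standard culture and 1.15 in day 4 colonies, and the share above the reference went from 42.8% to 81.1%. The lowered probes went from a median of 0.85 to -0.67, and their share above the reference from 76.8% to 17.9%. Over all tested probes that share was 48.4% and 48.5%. These sets were chosen for this difference, so their levels are a description.

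**Figure D1:**
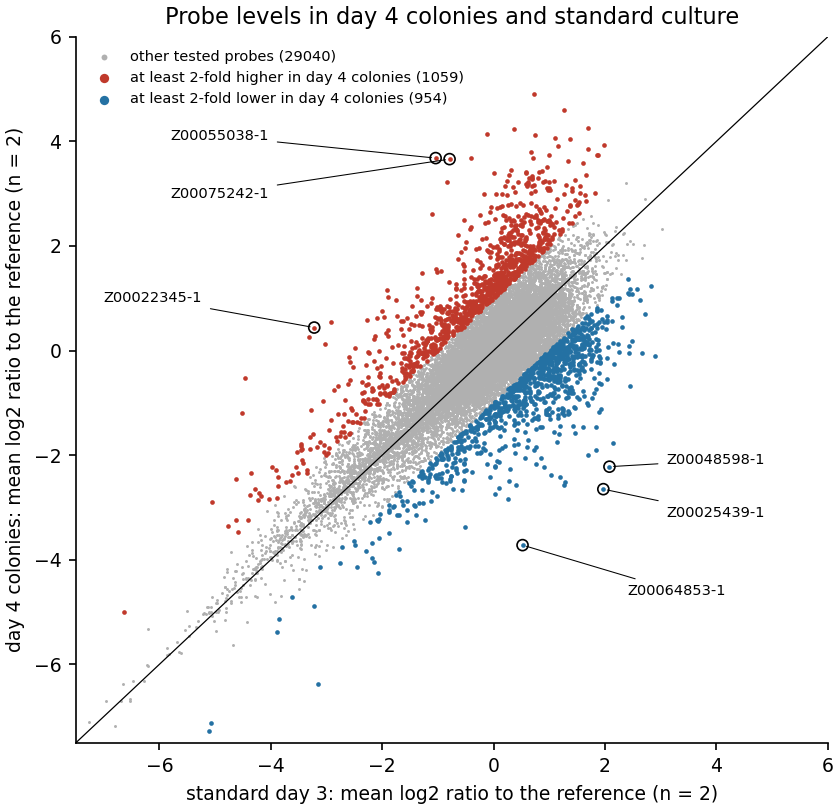
Each point is a tested probe, with its mean log2 ratio to the reference in standard day 3 (x axis, 2 arrays) and in day 4 colonies (y axis, 2 arrays); the line marks equal levels and 6 probes described in the text are circled. The 1059 raised probes lie above the line and the 954 lowered probes below it over the whole range of levels.

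Brightness and sequence stood beside the calls. Probes called at any size were 18.2% of the dimmest of 4 equal classes of tested probes by signal, and 46.2%, 64.3% and 65.2% of the next 3 classes, so brighter probes were called more often. AATAAA, the common signal for cutting and polyadenylating an RNA near its end, was searched as these letters on the probe's own strand. It stood in 9.82% of the raised probes, 10.5% of the lowered ones and 7.38% of all tested probes. Its reverse complement, TTTATT, stood in 3.21%, 4.4% and 3.07%. The median GC content was 45%, 43.3% and 45%. No test was made of these shares, and overlapping motifs were not separated.

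Pairs of probes with overlapping sequence gave a check within the array. There were 755 pairs in which at least the last 30 bases of one probe were the first bases of the other. Of the 577 pairs with both probes tested, 307 had both probes called, and all 307 moved in the same direction. In 77 pairs 1 probe was called, and in 193 neither was. Among 73 pairs with a member changed at least 2-fold, 72 had both called in the same direction. The log2 differences of such partners differed by a median of 0.06. Partners read the same stretch of RNA on the same array and are not separate evidence about the cells.

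The probe that rose most among those not placed, Z00055038-1, stood at 3.65 and 3.70 on the day 4 arrays and at -1.01 and -1.06 on the standard arrays. The log2 difference was 4.71, or 26.2-fold (SE 0.13, limma adjusted p = 6.41e-11). Z00075242-1 stood at 3.65 and 3.68 against -0.91 and -0.67 and rose by 4.45 (SE 0.14, limma adjusted p = 1.43e-10). The last 9 bases of Z00075242-1 are the first 9 of Z00055038-1, and across all groups their levels ran side by side. Both were highest in day 4 colonies, next in day 7 colonies (1.10 to 1.56 over the 4 values), and below 0 in both untreated groups, passage 10 and LY294002. In RA 48 h Z00055038-1 was at 0.44 and 0.52, above control day 3 by 0.68 (limma adjusted p = 0.00123).

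Falls of the same size took probes from well above the reference to well below it. Z00025439-1 stood at -2.64 and -2.66 in day 4 colonies and at 1.95 and 1.98 in standard culture, and it fell by 4.62 (SE 0.11, limma adjusted p = 1.73e-11). It was also at 1.51 and 1.56 in control day 3, at -0.06 and -0.14 in RA 48 h and at -0.83 and -0.41 in day 7 colonies. Z00048598-1 stood at -2.31 and -2.14 against 2.15 and 2.00 and fell by 4.30 (SE 0.15, limma adjusted p = 2.46e-10). In day 7 colonies it was at -2.41 and -1.79, which overlaps the day 4 values. Of these 2 probes, the first was lower in day 4 colonies than on any other array, and the second shared its low level with day 7.

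The pair Z00034455-1 and Z00004931-1 read nearly the same sequence and gave nearly the same values. Z00034455-1 stood at -2.49 and -2.54 in day 4 colonies and at 1.27 and 1.30 in standard culture, and it fell by 3.80 (SE 0.09, limma adjusted p = 2.01e-11). Z00004931-1 stood at -2.60 and -2.55 against 1.25 and 1.29 and fell by 3.84 (SE 0.09, limma adjusted p = 1.78e-11). On the other 10 arrays both lay between -0.17 and 1.73.

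The values at 48 h of RA are given for a further fall and a further rise. Z00064853-1 fell by 4.24 (SE 0.12, limma adjusted p = 8.58e-11), from 0.69 and 0.35 to -3.79 and -3.65. At 48 h of RA it stood at 1.25 and 1.26, with control day 3 at 1.30 and 1.35 (log2 difference -0.07, limma adjusted p = 0.698), and in day 7 colonies at 0.85 and 0.57. Z00022345-1 rose by 3.66 (SE 0.15, limma adjusted p = 1.15e-09), from -3.26 and -3.18 to 0.43 and 0.45. It was already at -0.01 and 0.16 after 48 h of RA, a rise by 3.32 over control day 3 (limma adjusted p = 7.46e-09), and stood at 1.02 and 0.50 in day 7 colonies. In passage 10 it stood at -3.36 and -3.20, values that overlap those of the standard arrays. A further probe chosen after its values were seen, Z00010202-1, was at -6.41 and -6.34 on day 4 against -3.18 and -3.13 in standard culture. It fell by 3.22 with an SE of 0.68 (limma adjusted p = 0.00157), an estimate that also takes in its day 7 arrays at -3.91 and -0.56, since all groups share one estimate of the spread.

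**Figure D2:**
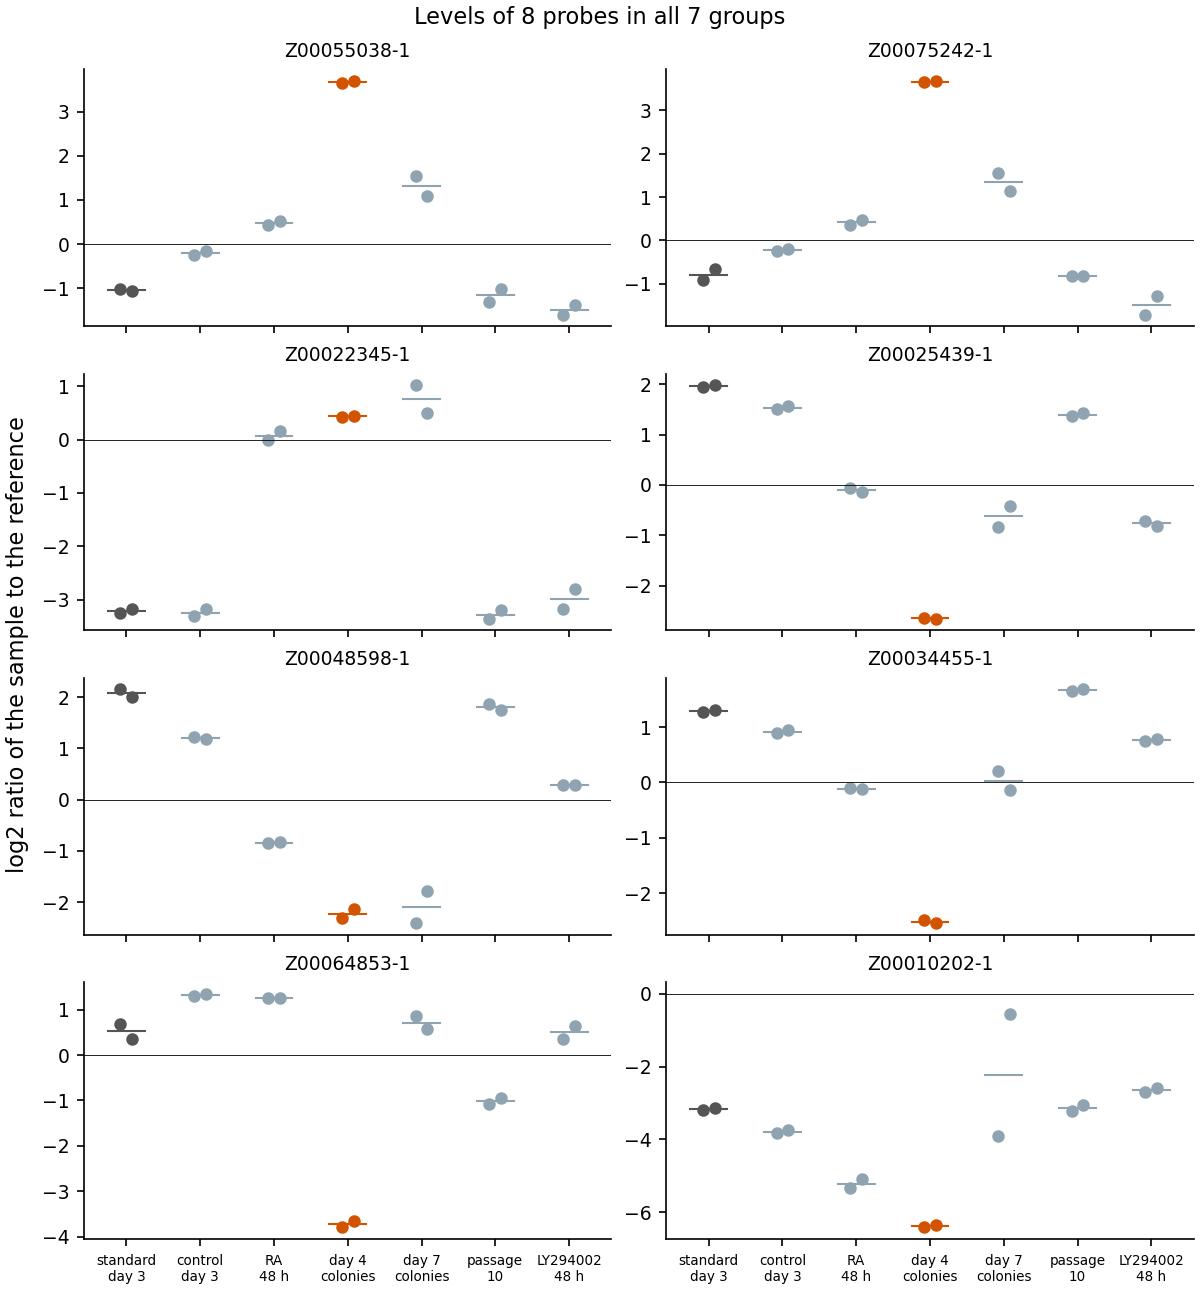
Each panel shows 1 probe, with the log2 ratio to the reference (y axis) of every array in the 7 groups (x axis, points) and the mean of the 2 arrays (bars); each panel has its own range. Z00064853-1 is low in day 4 colonies at -3.79 and -3.65 and at 1.25 and 1.26 after 48 h of RA, while Z00022345-1 is raised in RA 48 h, day 4 and day 7 colonies.

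Gene names could be given to a small part of the array. Probe sequences were matched to RefSeq windows from 250 bases before to 50 bases after each gene's start (GRCm38.p6), and 369 probes matched at a single place, 257 of them over all 60 bases and 112 over their first 30 to 59. Of the 257, 155 lay wholly or in part in the span of a single gene on the same strand. The 112 took the gene of their window, and whether another gene also spans them was not checked. H2bc11, H4c3, Ttll3, Zfp976, Mif, Prdx1 and Rpl10a are among the latter. Together 267 probes were given a gene, over 262 genes. Of these, 212 probes were given protein-coding genes and 55 genes of long noncoding RNA. Exons, introns and untranslated regions could not be told apart, and a match elsewhere in the genome was not looked for. Of the 267 probes 183 were tested, and 63 (34.4%, against 48.5% of all tested probes) were called, 43 higher and 20 lower. The placed probes were dimmer, with a median log2 signal of 7.13 against 8.43. At least 2-fold, 2 rose (H2bc11 and Gm11295) and 2 fell (Bcl11a and Zbtb8a).

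The probes of the placed genes that the following results turn on are printed with their GRCm38 position, from RefSeq. Capitals mark first bases that matched the window of the named gene, where the probe runs on past the window. The position is that of the matched bases. H2bc11 lies at chr13:22043200-22043247 on the plus strand, H4c3 at chr13:23698409-23698446 on the minus strand, Bcl11a at chr11:24172868-24172927 on the plus strand and Zbtb8a at chr4:129354034-129354093 on the minus strand. Nme2 lies at chr11:93955844-93955903 and Mif at chr10:75860228-75860276, both on the minus strand.
H2bc11: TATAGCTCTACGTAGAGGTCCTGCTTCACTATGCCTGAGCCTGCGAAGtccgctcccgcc
H4c3: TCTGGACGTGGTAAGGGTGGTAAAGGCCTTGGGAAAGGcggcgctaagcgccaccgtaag
Bcl11a: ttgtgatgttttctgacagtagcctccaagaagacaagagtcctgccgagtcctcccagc
Zbtb8a: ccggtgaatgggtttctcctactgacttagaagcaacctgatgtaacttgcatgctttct
Nme2: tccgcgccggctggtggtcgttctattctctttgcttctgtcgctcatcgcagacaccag
Mif: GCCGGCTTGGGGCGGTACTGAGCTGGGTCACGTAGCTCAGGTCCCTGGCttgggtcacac

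Of 7 tested probes of histone genes, 4 rose in day 4 colonies over standard culture and 3 did not pass the test, where 25.2% of all tested probes rose. Histones package DNA, and copies of these genes are alike, so a probe may read several of them. The H2bc11 probe stood at 0.75 and 0.85 in day 4 colonies and at -0.63 and -0.70 in standard culture. It rose by 1.47 (SE 0.09, limma adjusted p = 3.17e-08), or 2.77-fold. In control day 3 it stood at 0.71 and 0.53, which left a difference of 0.18 (limma adjusted p = 0.0953), and in RA 48 h at 1.05 and 0.90. The H4c3 probe went from -0.19 and -0.25 to 0.72 and 0.56 (log2 difference 0.86, limma adjusted p = 2.74e-06). Its standard arrays were not well above background, so the size of this rise is uncertain (2.69 with Agilent's processed signals). Its difference from control day 3 was 0.00 (limma adjusted p = 0.987).

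The median log2 difference of the 7 histone probes was 0.29, beside a median over all tested probes of 0.01. The others that rose were both H4c8 probes, by 0.39 (limma adjusted p = 0.000715) and 0.24 (limma adjusted p = 0.021). Their positions overlap in part, so they are not separate evidence. Set against control day 3, those 2 stood at 0.01 (limma adjusted p = 0.947) and -0.25 (limma adjusted p = 0.0117). H2ac18 at 0.29 (limma adjusted p = 0.086), H2ab2 at 0.01 and H3f3a at -0.01 did not pass the test. None of the 4 histone probes that rose was called higher against control day 3, where 29.2% of all tested probes were.

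Of the 12 named rises 6 were also higher than control day 3, beside that share of 29.2%. Both comparisons use the same day 4 arrays, so they are set side by side only. Ttll3, an enzyme that attaches glycine to tubulin, stood at 1.17 and 1.23 against 0.42 and 0.36 (log2 difference 0.81, SE 0.08, limma adjusted p = 3.11e-06). It was at -0.55 and -0.53 in control day 3, and the difference there was 1.74 (limma adjusted p = 2.49e-09). Tmem253, a membrane protein, stood at 1.75 and 1.81 against 0.98 and 0.93 (log2 difference 0.82, SE 0.10, limma adjusted p = 1.27e-05). Its probe lies partly outside the gene's span, and against control day 3 the difference was 1.65 (limma adjusted p = 1.61e-08). For both genes the day 4 arrays were the highest of all 14.

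Aurkc and Sympk were likewise highest in day 4 colonies. Aurkc, a kinase known for its part in meiosis, stood at 0.33 and 0.46 against -0.11 and -0.33, a rise by 0.62 (SE 0.09, limma adjusted p = 8.12e-05). No other array exceeded -0.11, and the difference from control day 3 was 0.71 (limma adjusted p = 1.6e-05). The Aurkc probe, too, lies partly outside the gene's span, with most of its bases before the gene's start. Sympk, a scaffold of the complex that cuts the ends of messenger RNAs, rose by 0.57 (SE 0.08, limma adjusted p = 6.4e-05), and a second probe of it rose by 0.49 (limma adjusted p = 0.000129). With median centring in place of loess the rises were 0.49 and 0.38 and no longer passed the threshold (adjusted p = 0.0656 and 0.0664 in limma).

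Mff, which brings the fission machinery to mitochondria, went from -0.89 and -0.82 to 0.14 and 0.03, a rise by 0.94 (SE 0.08, limma adjusted p = 4.91e-07), and by 0.38 over control day 3 (limma adjusted p = 0.000893). The zinc finger gene Zfp976 went from 0.20 and 0.15 to 0.84 and 0.80, a rise by 0.64 (SE 0.06, limma adjusted p = 2.02e-06), and by 0.42 over control day 3 (limma adjusted p = 6.93e-05). Both were also higher at 48 h of RA than in control day 3, Mff by 0.30 and Zfp976 by 0.26 (limma adjusted p = 0.00761 and 0.00509).

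The remaining rises were not seen against control day 3. Gm11295, a predicted gene whose probe lies partly outside its span, rose by 1.15 over standard culture (SE 0.13, limma adjusted p = 1.02e-05) and differed by -0.03 from control day 3 (limma adjusted p = 0.854). Appbp2os, a noncoding RNA opposite Appbp2, rose by 0.72 (limma adjusted p = 3.84e-05) and differed by 0.02 from control day 3 (limma adjusted p = 0.856). Yipf3, a protein of Golgi membranes, rose by 0.53 (limma adjusted p = 0.000702), or by 0.47 with median centring (adjusted p = 0.0699), and differed by -0.01 from control day 3 (limma adjusted p = 0.965). The beta-defensin gene Defb36 went from 0.01 and -0.06, not well above background, to 0.46 and 0.53, at least 1.31-fold higher (limma adjusted p = 0.00056). With Agilent's processed signals the log2 difference was 3.37. In control day 3 Defb36 stood at 1.46 and 1.25, so that there the direction was turned (log2 difference -0.86, limma adjusted p = 5.28e-06). Such a bound sets the mean Cy3 signal of the brighter group against the higher of the dim probe's own signal and the lowest signal well above background. It uses single channels after loess and quantile scaling of the mean signals, and with no dye swap it is open to dye bias.

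The largest placed fall was in Bcl11a, a zinc finger transcriptional repressor known for silencing fetal globin genes. Its probe stood at -1.57 and -1.35 in day 4 colonies and at -0.23 and -0.40 in standard culture, a fall by 1.14 (SE 0.13, limma adjusted p = 1.02e-05), or 2.21-fold. The size depended on the processing, with a log2 difference of -2.35 from Agilent's processed signals. Against control day 3 the probe fell by 1.20 (limma adjusted p = 4.42e-06). It stood at -1.18 and -1.30 in RA 48 h and at -1.14 and -1.63 in day 7 colonies, and at 1.58 and 1.61 with LY294002. All 6 arrays of cells sampled in RA thus lay below all 8 others.

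Zbtb8a, a member of the BTB zinc finger family, fell by 1.07 (SE 0.06, limma adjusted p = 2.04e-08), from 0.94 and 1.05 to -0.09 and -0.06. Against control day 3 the difference was -0.62 (limma adjusted p = 2.1e-06). It was lower still in RA 48 h, at -0.50 and -0.55, and in day 7 colonies, at -0.73 and -0.70. Passage 10 cells, grown without RA, stood at 0.97 and 1.04, level with standard culture. As for Bcl11a, the 6 arrays of cells in RA were the lowest.

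Nme2, Adk and Prdx1 had their lowest levels in day 4 colonies, as did Mif, Hmgb2 and Rpl10a among the other named falls. Nme2, a nucleoside diphosphate kinase, stood at -1.12 and -1.14 against -0.03 and -0.37, a fall by 0.93 (SE 0.11, limma adjusted p = 1.84e-05). Adk, adenosine kinase, stood at -0.49 and -0.41 against 0.17 and 0.54, a fall by 0.81 (SE 0.10, limma adjusted p = 1.8e-05). Prdx1, a peroxiredoxin that removes hydrogen peroxide, stood at -0.55 and -0.58 against 0.10 and 0.02, a fall by 0.63 (SE 0.11, limma adjusted p = 0.000413). The differences of the 3 from control day 3 were -1.67, -0.92 and -1.42 (limma adjusted p = 6.4e-08, 3.67e-06 and 2.19e-07). For all 3 the day 4 arrays were the lowest of the 14.

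The cytokine gene Mif stood at -0.76 and -0.69 against 0.24 and 0.08, a fall by 0.88 (SE 0.13, limma adjusted p = 0.000123). In RA 48 h it stood at -0.59 and -0.68, lower than control day 3 by 0.51 (difference -0.51, limma adjusted p = 0.00932). Hmgb2, a chromatin protein with HMG boxes whose probe lies partly outside the gene's span, stood at -0.06 and 0.07 against 0.56 and 0.67, a fall by 0.61 (SE 0.14, limma adjusted p = 0.00235). Most bases of the Hmgb2 probe lie before the gene's start. Both stayed lower against control day 3, Mif at -0.60 and Hmgb2 at -0.39 (limma adjusted p = 0.00183 and 0.0269).

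Ribosomal protein probes did not move as 1 group against standard culture. Of 7 tested, 1 rose, 3 fell and 3 did not pass the test, with a median of -0.19, where 25.2% of all tested probes rose and 23.2% fell. The 3 falls were 1 probe of Rpl10a and both of Rpl38, proteins of the large subunit. The Rpl38 probes fell by 0.57 (SE 0.10, limma adjusted p = 0.000274) and 0.99 (SE 0.08, limma adjusted p = 5.46e-07), and they share most of their sequence. Rpl10a stood at -0.48 and -0.55 against 0.34 and -0.28, a fall by 0.55 (limma adjusted p = 0.021) that rested on 1 standard array. Without standard replicate 1 it was -0.23 (limma adjusted p = 0.275). Fau, which encodes a fusion of a ubiquitin-like protein and a small subunit protein, rose by 0.23 with one probe (limma adjusted p = 0.0326), while the other stood at 0.13 (limma adjusted p = 0.199).

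Relative to control day 3, where 30.7% of all tested probes were lower, the falls of Rpl38 and Rpl10a were larger. The Rpl38 probes stood at differences of -1.83 and -1.96 (limma adjusted p = 6.78e-09 and 9.71e-10) and Rpl10a stood at -1.66 (limma adjusted p = 3.58e-06). Rps27rt, at -0.09 against standard culture (limma adjusted p = 0.554), was at -1.26 (limma adjusted p = 6.99e-07), and Rps27l at -0.57 (limma adjusted p = 0.000263). The Fau probe that rose against standard culture fell against control day 3, at -0.44 (limma adjusted p = 0.000354), and the second Fau probe stood at 0.07 (limma adjusted p = 0.438). Ribosomal protein genes have many processed copies, so what these probes read is uncertain.

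The last named falls depended on the untreated culture in different ways. Zmynd10, needed to assemble the motors of cilia, fell to a signal not well above background, at least 1.34-fold below standard culture (log2 difference -0.50, limma adjusted p = 0.00013; -2.13 with Agilent's processed signals), and by more against control day 3 (-1.24, limma adjusted p = 2.57e-08). Zbtb22, another BTB zinc finger gene, fell by 0.58 (SE 0.07, limma adjusted p = 3.13e-05), but stood above control day 3 by 0.24 (limma adjusted p = 0.0137). D8Ertd738e fell by 0.53 (SE 0.09, limma adjusted p = 0.000323) and differed by 0.08 from control day 3 (limma adjusted p = 0.449). In all, 10 of the 12 named falls were also lower than control day 3, where 30.7% of all tested probes were lower.

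**Figure D3:**
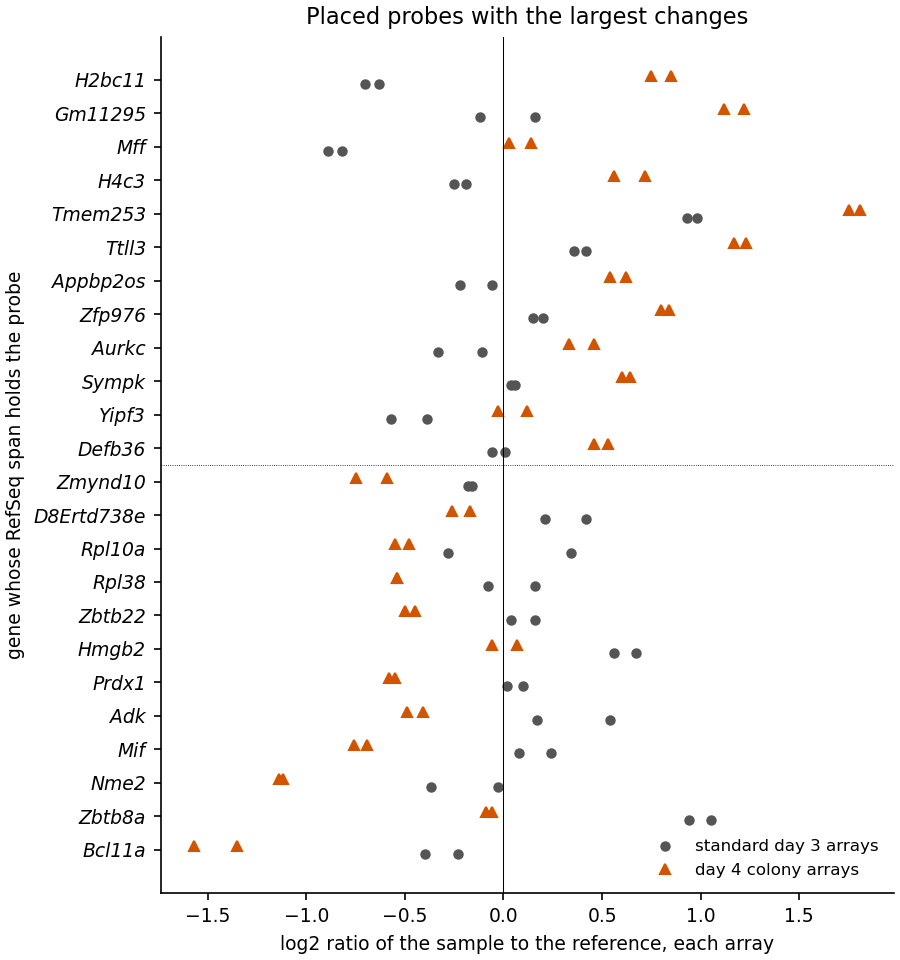
Log2 ratio to the reference (x axis) on each day 4 colony array (triangles) and each standard day 3 array (circles) for the 24 placed probes with the largest called changes, rises above the dotted line and falls below it (y axis, gene). The groups overlap for none of these probes, by the rule that chose them; the widest gap between replicates is that of Rpl10a, at 0.34 and -0.28 in standard culture.

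**Figure D4:**
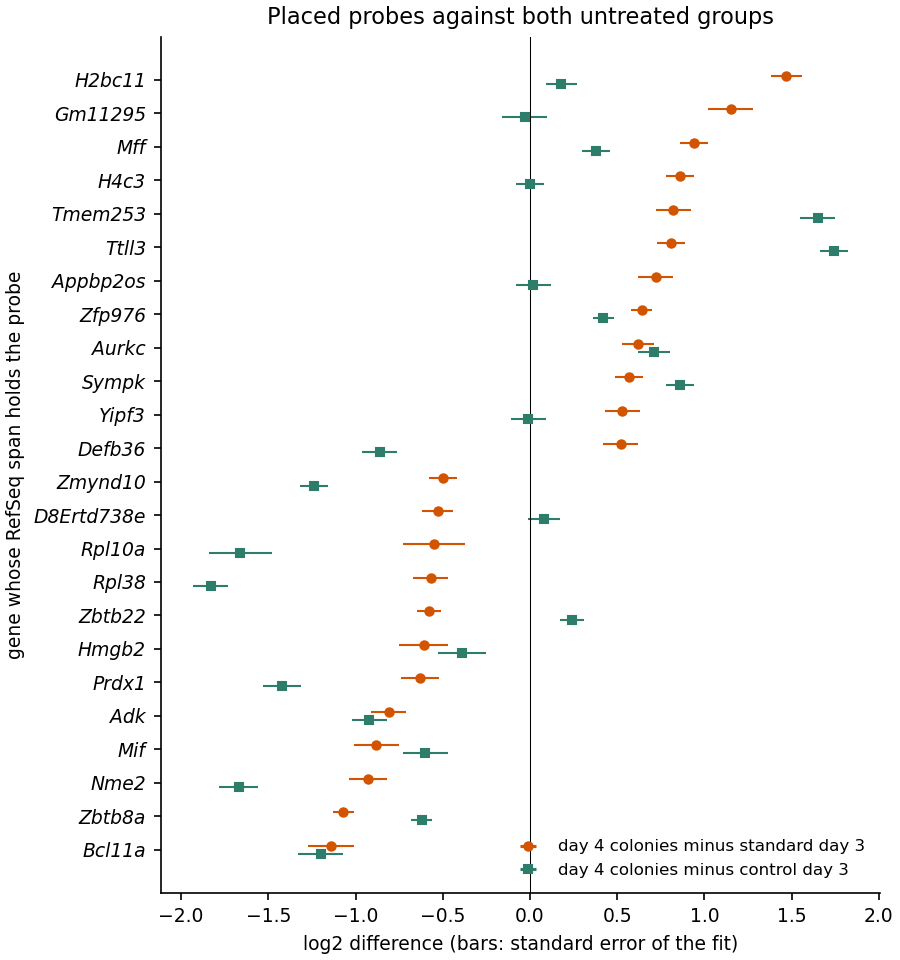
Log2 difference (x axis) of day 4 colonies from standard day 3 (circles) and from control day 3 (squares) for the same 24 placed probes (y axis, gene), with bars of 1 standard error of the fit. Both histone probes shrink to 0.18 and 0.00 against control day 3 and Defb36 turns to -0.86, while Ttll3 and Tmem253 grow to 1.74 and 1.65.

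Genes of pluripotency, of the RA response and of the cell types such a culture can hold could not be read. Of 677 symbols in 23 lists, 674 are in the reference and 5 had a placed probe, so the lists were not tested and the label of ES cells could not be set against marker genes. Among the 5, the probes of Zfp503 and Hspa1a were too dim to test. Pax7, a regulator of neural crest and muscle, stood at -0.04 and 0.16 against 0.00 and -0.26 (log2 difference 0.20, limma adjusted p = 0.151). Acta2, smooth muscle actin, was well above background on 1 of the 4 arrays and Xlr3b on none, so no difference from standard culture alone is given for them. Whether the amount of differentiated cells differed between the groups was not tested.

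The position of the day 4 arrays relative to both untreated cultures was counted as a description, since the choice of probes favours groups that do not overlap. Of the 1059 raised probes, 943 (89%) were higher on both day 4 arrays than on all 4 untreated arrays, and 907 of the 954 lowered ones (95.1%) were lower. Over all tested probes these shares were 25.1% and 24.4%. Against the mean of both untreated groups, 847 probes were at least 2-fold higher (2.73% of those tested) and 1049 lower (3.38%), among 17458 called (56.2%), with day 4 outside all 4 untreated arrays for 835 and 1037. With control day 3 alone as the baseline, 1155 were at least 2-fold higher (3.72%) and 1837 lower (5.92%). The falls thus outnumbered the rises in that comparison, where the counts against standard culture were 1059 and 954.

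Probes changed in day 4 colonies had mostly moved the same way after 48 h of RA, a comparison with control day 3 that shares no array with the first. Of the 1059 raised probes 669 (63.2%) rose at 48 h, where 22.4% of all tested probes rose, and 65 fell. Their median log2 difference at 48 h was 0.40, against 0.01 for all tested probes. Of the 954 lowered probes 557 (58.4%) fell, where 15.9% of all fell, and 130 rose, with a median of -0.38. At least 2-fold, 221 of the raised probes rose at 48 h (2.71% of all tested probes did) and 148 of the lowered ones fell (0.895% of all). The shares over all tested probes, here and for LY294002 below, are not matched for signal. The raised and lowered sets hold few dim probes, 39 and 19 in the dimmest of the 4 classes.

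**Figure D5:**
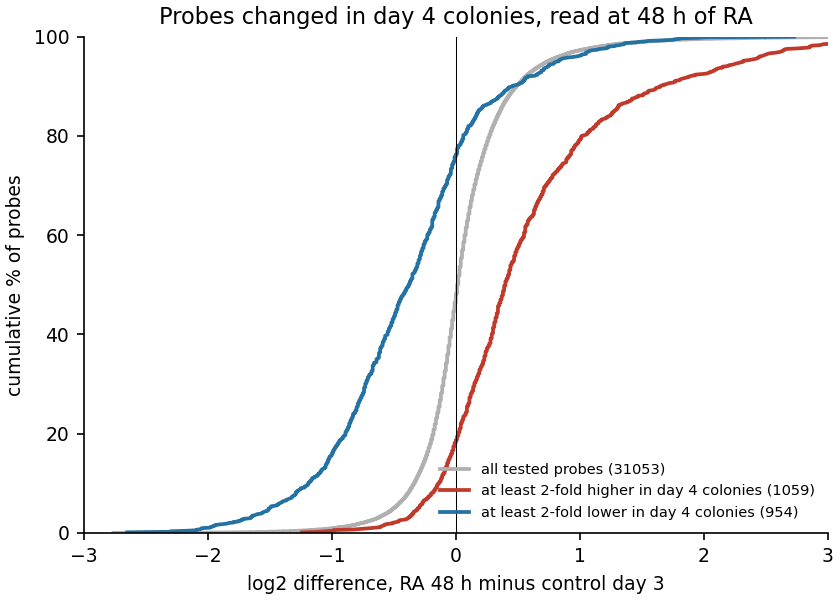
Cumulative percentage of probes (y axis) by their log2 difference between RA 48 h and control day 3 (x axis), for all 31053 tested probes, the 1059 raised and the 954 lowered in day 4 colonies. The raised set is shifted to higher values (median 0.40) and the lowered set to lower values (median -0.38) than all tested probes (median 0.01).

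LY294002 gave another pattern in the same probes. This comparison uses the same control arrays as RA 48 h, and the values are given side by side only. Of the 1059 raised probes 649 (61.3%) fell with LY294002, where 28.1% of all tested probes fell, and 171 rose, where 24.5% of all rose, with a median of -0.48. Of the 954 lowered probes 448 (47%) fell and 289 (30.3%) rose, both above the shares of all tested probes, with a median of -0.17. Probes raised in the colonies were thus mostly raised by RA and mostly lowered by LY294002, while more of the probes lowered in the colonies fell than rose with either agent. With LY294002 more of all tested probes fell than rose as well.

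Among the named placed probes 7 of the 12 rises were also higher at 48 h of RA than in control day 3, and 6 of the 12 falls were also lower, where 22.4% of all tested probes rose and 15.9% fell. Bcl11a fell by 0.99 (difference -0.99, limma adjusted p = 6.3e-05), Zbtb8a by 1.06 (limma adjusted p = 5.11e-08), Zmynd10 by 1.14 (limma adjusted p = 1.79e-07) and Rpl38 by 0.81 (limma adjusted p = 2.57e-05). Sympk is among the rises with its brighter probe, at 0.38 (limma adjusted p = 0.00248), while its second probe stood at 0.13 (limma adjusted p = 0.213). At 48 h Nme2 stood at -0.23 (limma adjusted p = 0.133), Prdx1 at -0.10 (limma adjusted p = 0.516) and Aurkc at -0.16 (limma adjusted p = 0.179). The day 4 changes of these 3 thus had no called counterpart at 48 h.

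The change from standard culture to day 4 colonies was tested against the change from control day 3 to RA 48 h in the same limma fit. The changes differed for 12026 probes (38.7% of those tested), more positive in the colonies for 5503 (17.7%) and more negative for 6523 (21%). Of the 1059 raised probes 871 were more positive and 51 more negative, and of the 954 lowered ones 834 were more negative and 9 more positive. The choice of these sets uses the same arrays and favours such a direction, so nothing is read from it. The 2 changes start from different untreated cultures, and day 4 differs from RA 48 h in subline, picking and slide.

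For some probes the difference of changes did not pass the test. It was -0.15 for Bcl11a (limma adjusted p = 0.557), -0.01 for Zbtb8a (limma adjusted p = 0.947), -0.37 for Mif (limma adjusted p = 0.146) and 0.34 for Z00022345-1 (limma adjusted p = 0.235). A p that misses the threshold does not show that these changes were equal. For Z00064853-1, by contrast, the difference of changes was -4.17 (limma adjusted p = 8.07e-09), and for Aurkc 0.78 (limma adjusted p = 0.000345).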

How the data were processed

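Total RNA was read on 14 two-colour Agilent arrays, per the file headers with version 9.5.1.1 of Agilent Feature Extraction, with the sample in Cy3 and the reference in Cy5 on each. The deposited intensity values used here, mean signal and median background per spot, are not normalized. The deposited processed intensities were background-subtracted and dye-normalized by that software, per the file headers, and the deposited log10 ratios put Cy5 over Cy3. For 25030 probes the authors deposited a table of log10 values. Centred by probe, its columns followed minus the scanner log10 ratio (r of 0.9993 to 1.0000 over 14654 probes), so its direction is sample over reference. Its column medians were 2.24 to 2.32, and the origin of its constant per probe is not given in the sources used here.

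Signals were corrected with normexp (offset 50) and log ratios normalized by loess in limma 3.58.1 (R 4.3.3, statmod 1.5.0). Control spots had weight 0 and were left out, as were outlier spots, which touched 10 tested probes on the 4 arrays compared, and replicate spots of a probe were averaged. Testing asked for a probe to be well above background in Cy3 on both arrays of at least 1 group (31053 of 42006, 73.9%). One limma fit over all 14 arrays gave every contrast (7 residual and 5.33 prior degrees of freedom), two-sided, adjusted over all tested probes at 0.05. Only the limma fit was tried on simulated log ratios, with changes in a small share of the probes. Background correction, loess, spot averaging and the brightness filter were not part of that trial. The comparison, the gene lists and the alternatives were chosen with earlier results of these data known. The text names the 12 largest rises and 12 largest falls among placed probes of 1 gene that were called, did not overlap between groups and were above background in the higher group (1 probe a gene, the brightest), 2 of each among unplaced probes, and list members. Replicate numbers do not pair the arrays: deviations of same-numbered arrays correlated at r = 0.0502 in 2 pairs, and no label ties them.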

Additional observations from a re-analysis of the deposited data

Results flagged for a closer look

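The change in day 4 colonies against standard culture differed from the change at 48 h of RA against control day 3 for 12026 probes in limma's test of the difference. The results listed here are named because that test passed, and no group of 2 arrays could be examined for outlying arrays. All values that follow are log2 differences of the changes, positive where the change in the colonies was the more positive. Among the probes that could not be placed they were 4.03 for Z00055038-1 and 3.82 for Z00075242-1. They were -4.17 for Z00064853-1, -2.98 for Z00025439-1, -2.85 for Z00004931-1, -2.78 for Z00034455-1 and -2.25 for Z00048598-1.

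Among the placed genes that rose in the colonies, the difference was 1.27 for Gm11295, 1.12 for H2bc11, 0.78 for Aurkc, 0.64 for both Mff and Tmem253, and 0.61 for H4c3. It was 0.59 for Appbp2os, 0.53 for Ttll3, 0.42 for Yipf3, 0.39 for Zfp976 and 0.36 for the second Sympk probe. The brighter Sympk probe, at 0.19, did not pass the test (limma adjusted p = 0.208). Among the genes that fell the difference was -0.71 for both Zbtb22 and Rpl10a, -0.70 for Nme2, -0.54 for Hmgb2, -0.53 for both Prdx1 and D8Ertd738e, and -0.39 for Adk. For Zmynd10, which fell in both comparisons, the fitted value was 0.64, but its day 4 arrays were not well above background, so its fall there is only a bound and the order of both falls is not known. Each value is the sum of 2 parts, day 4 colonies minus RA 48 h and control day 3 minus standard culture. The second part was 1.29 for H2bc11, 1.18 for Gm11295, 0.86 for H4c3, 0.70 for Appbp2os, 0.56 for Mff and 0.53 for Yipf3. It was 0.23 for Zfp976, 0.74 for Zmynd10, -0.82 for Zbtb22, -0.61 for D8Ertd738e and -0.22 for Hmgb2. For the probes not placed the second part was 0.83 for Z00055038-1, 0.57 for Z00075242-1 and -0.87 for Z00048598-1. For Z00025439-1, Z00004931-1 and Z00034455-1 it was -0.43, -0.42 and -0.38. This second part was opposite in sign to the value for Ttll3 (-0.93), Tmem253 (-0.83), Aurkc (-0.10), the second Sympk probe (-0.18), Rpl10a (1.12), Prdx1 (0.79), Nme2 (0.74), Adk (0.12) and Z00064853-1 (0.81). H2bc11, H4c3, Appbp2os and Yipf3 had lower means in day 4 colonies than in RA 48 h, so their first part was opposite in sign to the value. The same held for the fitted mean of Zmynd10, which was dim on day 4. Zbtb22 and D8Ertd738e had higher means in day 4 colonies than in RA 48 h, again opposite in sign to their values. What made the untreated cultures differ was not tested.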

How the results depend on the processing

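Counts of 2-fold changes moved with the background correction and the dye normalization. With Agilent's processed signals, 2-fold rises numbered 2770 and falls 2554, and with the authors' value table (19083 probes) 1703 and 1570. Both of these settings change background correction and dye normalization together. The smaller normexp offset alone gave 1510 and 1241, and scale normalization between arrays 1116 and 1020 (14697 called). With median centring in place of loess 7476 probes were called (3458 higher, 4018 lower) and 4066 for the difference of changes. At least 2-fold, 846 were then higher and 1012 lower than standard culture, so falls outnumbered rises there too. With control day 3 as the baseline 1837 were at least 2-fold lower and 1155 higher. Leaving out 1 array gave 12361 to 13400 called, 1044 to 1118 at least 2-fold higher, 957 to 968 lower and 9841 to 11112 for the difference of changes. The lone array of a group was then taken to vary like the others. The replicate block, fitted although the numbers do not pair the arrays, gave 15786 called, 1059 higher and 955 lower at least 2-fold. Of 660 values for 38 named probes under 18 alternatives, 636 kept direction and side of the threshold, 12 lost and 3 gained a call, and 9 were reversed. With control day 3 as the baseline the reversed values were -0.03 for Gm11295, -0.01 for Yipf3, -0.86 for Defb36, 0.24 for Zbtb22, 0.08 for D8Ertd738e, 0.10 for Acta2 and -0.49 for Xlr3b, the last 2 read from probes not well above background in day 4 colonies. With the mean of both untreated groups, a baseline chosen after seeing the data, they were -0.17 for Defb36 and -0.19 for Xlr3b. Acta2 and Xlr3b had not been called against standard culture. Rpl10a lost its call under 6 alternatives, among them without either day 4 array (adjusted p = 0.0624 and 0.098 in limma) and with scan day as a block, also added later (-0.41). The cause of these changes was not tested. Dim probes limit the precision, since a probe below background in a group gives only a bound there.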
